A study of Mus musculus with 12 samples.

Results

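The histone genes are the genes for the proteins around which DNA is wound: the core histones H2A, H2B, H3 and H4, and the linker histone H1. They were chosen by name, as the protein-coding genes whose symbols begin with H1f, H2ac, H2aj, H2aw, H2ax, H2az, H2bc, H2bu, H3c, H3f or H4c. The rule uses no measured value, but it was set with earlier results of these data known. This gave 79 of the 56748 genes in the deposited table: 11 for H1, 22 for H2A, 19 for H2B, 15 for H3 and 12 for H4. Messenger RNA was drawn from whole retinas with poly-T beads and sequenced, with 1 retina from each mouse. Age-matched C57BL/6J and JR5558 mice were taken at 4 weeks and at 8 weeks, with 3 mice in each of the 4 groups. JR5558 is an inbred line that grows new vessels under the retina spontaneously. It carries the rd8 allele of Crb1, a photoreceptor and Müller cell polarity gene, and an allele of Jak3, a cytokine receptor kinase. C57BL/6J is an age-matched reference strain and not a littermate control.

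Most histone genes are replication-dependent. They are copied during S phase, their messages end in a stem-loop bound by Slbp, and they carry no poly-A tail. Replication-independent genes make variants such as H3.3, H2A.Z and H1.0 throughout life, and their messages have ordinary poly-A tails. Cells that have left the cycle, such as the neurons of the retina, use these variants, and some genes of the replication-dependent clusters are also known to give polyadenylated messages in them. By name, 67 of the 79 genes are cluster genes and are called replication-dependent here, and 12 are called replication-independent. The division rests on names alone, and H3f4, among the 12, lies near the cluster gene H2aw on chromosome 11. Poly-T beads hold messages with a tail, so the levels below describe the polyadenylated histone RNA and not all histone RNA.

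Total counts ran from 18029611 to 23739886 per library, and all histone genes together took 0.167% to 0.235% of them. Each group difference given below is from edgeR's quasi-likelihood test on counts, fitted on all 12 libraries, with p-values adjusted by the Benjamini-Hochberg method over 18334 tested genes and a threshold of 0.05. Errors after ± are standard errors for log2 fold changes and SD for levels, and CPM are counts per 1000000 of the scaled library size. The libraries labelled JR5558 at 4 weeks held 0 to 5 counts of Xist and 1323 to 1846 counts of the Y-linked gene Ddx3y, while the other 9 held 7772 to 22988 counts of Xist and 0 of Ddx3y. The labels give no sex, so the strain comparison at 4 weeks, the age comparison in JR5558 and the test of whether the strains differ alike at both ages carry this difference with them, as does any average over both strains, and the contributions cannot be told apart. Age in C57BL/6J and strain at 8 weeks do not carry it. Gnat1, the transducin subunit of rods, stood at 6202 to 8772 CPM. Whether JR5558 4-week replicate 3 stood apart depended on how low values were treated. In principal components of the 500 most variable genes it lay at 29.0 on the second component, against 4.21 and -0.40 for the others of its group, where logs were taken with a prior count of 2. It lay at 10.5, against 9.20 and 9.49, with 0.5 CPM added to every value, and at 7.95, against 8.37 and 9.61, with 1 CPM added. Values without it are given beside the main results it enters. In bulk tissue, fewer cells of a type and less RNA per cell cannot be told apart.

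The 3′ ends of the messages were read from the annotated transcripts (GENCODE M21, build GRCm38), because the end decides what poly-T beads can hold. A match to the histone stem-loop was present in 39 of 79 histone genes (49.4%) and in 13 of 21824 other protein-coding genes (0.0596%), and all 39 were replication-dependent. The core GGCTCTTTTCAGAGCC was found in 26 genes, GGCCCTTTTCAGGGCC in 6, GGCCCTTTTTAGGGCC and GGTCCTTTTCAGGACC in 2 each, and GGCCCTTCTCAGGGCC, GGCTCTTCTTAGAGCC and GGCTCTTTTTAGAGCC in 1 each. The stem-loops of 6 genes that the results turn on are printed below, 5′ to 3′ on the transcript's strand, with the stem-loop core in capitals, because they show that the motif of a message without a tail stands inside longer annotated messages.
H1f2: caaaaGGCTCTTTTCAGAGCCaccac
H2bu2: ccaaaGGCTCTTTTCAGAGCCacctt
H2ac6: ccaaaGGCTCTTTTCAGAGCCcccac
H3c15: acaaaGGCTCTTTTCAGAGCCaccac
H4c9: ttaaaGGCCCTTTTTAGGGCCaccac
H2ac7: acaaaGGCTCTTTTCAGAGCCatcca
In H1f2 the core lies on the plus strand at chr13:23739512-23739527, 840 bases before the annotated end of the transcript. In H2bu2 it lies on the plus strand at chr11:58949349-58949364, 169 bases before the end. In H2ac6 it lies on the minus strand at chr13:23683477-23683492, with 2010 bases past it. In H3c15 (chr3:96238485-96238500, minus strand) and H4c9 (chr13:22040966-22040981, minus strand) 377 and 330 bases follow. H2ac7 (chr13:23574895-23574910, plus strand) ends 42 bases past its core and is the short form. The cores of H1f2, H2bu2, H2ac6, H3c15 and H2ac7 are identical, and H4c9 has a different loop and stem.

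Levels differed with this annotated form. Among the 67 replication-dependent genes, 19 run at least 100 bases past the stem-loop, and their median level was 1.44 FPKM over the 12 libraries, with 16 of the 19 passing the filter on low counts. In 20 genes the transcript ends less than 100 bases past it, and their median was 0.161 FPKM, the highest being H4c8 at 2.57 FPKM, with 4 passing. The remaining 28 had no match in their annotated transcript, with a median of 0.110 FPKM and 5 passing. A transcript annotated without its full 3′ end cannot show a match. Some of these are short, such as H4c12 at 312 bases and H2bc13 at 381, while the stem-loop of H4c6 begins at base 343. No match therefore need not mean that the message lacks a stem-loop. The 100-base division was chosen after the values were seen and is a description. The share of 100-base words of a gene's longest annotated transcript that occur in another gene moved with the form. Its median was 15.1% in the long form, 54.5% in the short form and 55.9% without a match. Its part in the levels was not tested. H2bc4 (84.9 FPKM), H2bc21 (10.4 FPKM) and H4c12 (6.96 FPKM) were high without a match, and H1f3, annotated 4884 bases past its stem-loop, stood at 0.136 FPKM. A poly-A hexamer (AATAAA or ATTAAA in the last 50 bases) was found in 10 of the 19 long-form genes, 2 of the 20 short-form genes, 4 of the 28 without a match and 10 of the 12 replication-independent genes, against 78.0% of other protein-coding genes. Of RNAs known to lack a tail, Terc, Rmrp, Rny1, Rny3, Rpph1, Rn7s1 and Rn7s2 were at 0 in every library, and Rn7sk had 32 to 246 counts. The reason for these 0 counts was not tested. Malat1, an RNA without a standard tail but with an A-rich stretch near its end, had 4770 to 11698 counts.

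**Figure D1:**
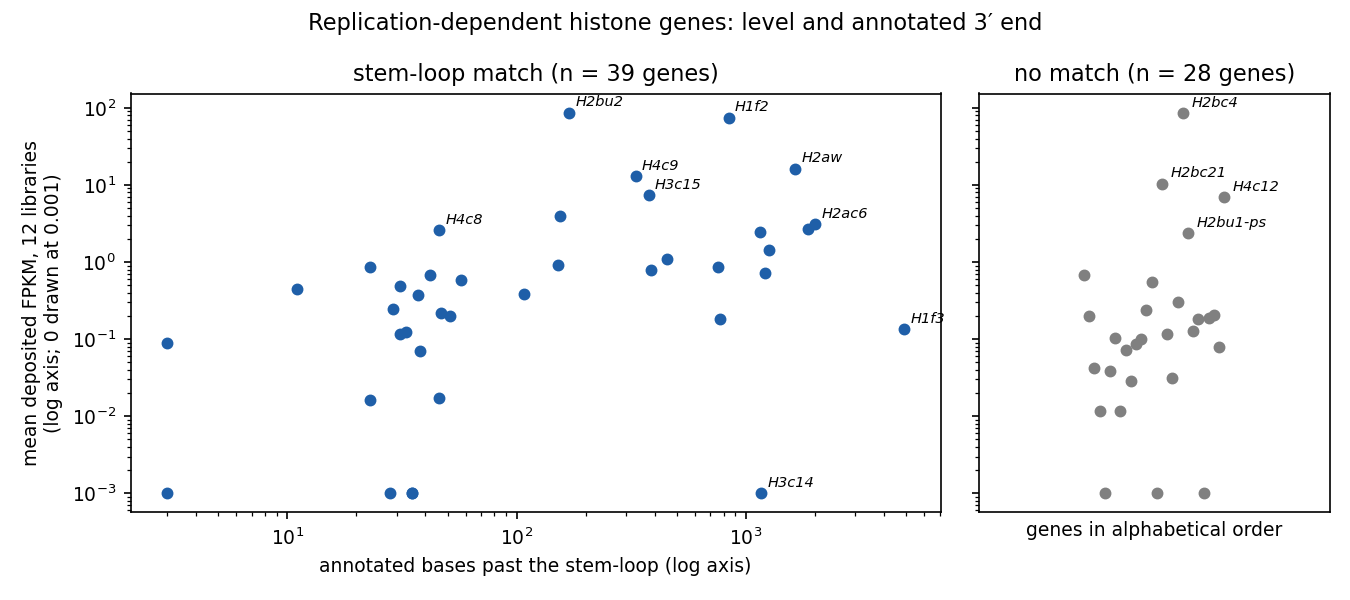
Mean deposited FPKM over 12 libraries of the 67 replication-dependent histone genes (log axis, 0 drawn at 0.001), against the annotated bases past the stem-loop for the 39 genes with a match (left) and for the 28 without (right). Genes ending under 100 bases past the stem-loop reach at most 2.57 FPKM, in H4c8, while H1f2 and H2bu2 among the longer ones stand at 75.0 and 86.9 FPKM.

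How well a gene's reads can be told from those of other genes also differed. The share of 100-base words was taken from each gene's longest annotated transcript only. Its median was 10.3% in the 35 tested histone genes and 58.2% in the 44 that were not tested. The 44 had at most 59 counts over all libraries. Of these, 10 had 0 counts in every library, which allows up to 0.0123 CPM over the 12 libraries, and their median share was 96.1%. H2ac18, H2ac19, H2bc18, H3c13 and H3c14 were at 100%, so a 0 there need not mean a silent gene. How reads matching several genes were counted is not given in the sources used here. These genes also overlap long non-coding RNA genes with which they share words. Gm20632, on the strand opposite H2ac19, had 1939 counts over all libraries. H2bc18 shared words only with Gm20628 (140 counts) and Gm42743 (7 counts), and both overlap it. H1f7 and H1f9, linker histones of the testis, were at 0 counts with a share of 0.0%. Among tested genes the share was 64.3% in H4c12, 63.6% in H2ac7, 61.6% in H3c15 and 58.8% in H2az1, and their levels are uncertain for that reason. H2bc6 and H1f4 overlap on the same strand, as do H2aw and H3f4 with Trim17, and these values may share reads.

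On the FPKM scale, which corrects for length, the H3.3 genes were the highest of all. H3f3b stood at a mean of 280.4 FPKM (210 to 332) and H3f3a, which encodes the same protein, at 152 FPKM (135 to 172). Together they gave 99.1% to 99.7% of all H3 counts in every library. That share is not corrected for length, and the gene lengths were 2976 bases in H3f3b, 3504 in H3f3a and 1020 in H3c15. H3c15, a cluster H3 gene, followed at 7.44 FPKM (2.95 to 11.8), and its range lay below that of both H3.3 genes. Among H2B genes, H2bu2 (86.9 FPKM, 78.0 to 98.3) and H2bc4 (84.9 FPKM, 63.0 to 114) overlapped each other, and H2bc21 stood below both at 10.4 FPKM (9.19 to 11.5).

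Among linker histones, H1f2, the gene of H1.2, stood at 75.0 FPKM (50.04 to 97.8). H1f0, the gene of H1.0, a linker variant of cells that have stopped dividing, stood at 48.5 FPKM (38.7 to 53.9), and the ranges overlapped. H1f10 was far lower at 3.55 FPKM (2.48 to 5.79). For H2A, the H2A.Z genes H2az2 (47.9 FPKM, 37.8 to 62.9) and H2az1 (46.9 FPKM, 35.8 to 55.2) could not be ordered by their ranges. H2ax, whose protein is phosphorylated at DNA breaks, came next at 29.5 FPKM (22.5 to 35.3), below both H2A.Z genes by range. H4 messages were low throughout. H4c9 led at 13.1 FPKM (6.16 to 19.1), H4c12 followed at 6.96 FPKM (2.87 to 11.4) and H4c8 at 2.57 FPKM (0.702 to 4.54), with overlap between neighbours.

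**Figure D2:**
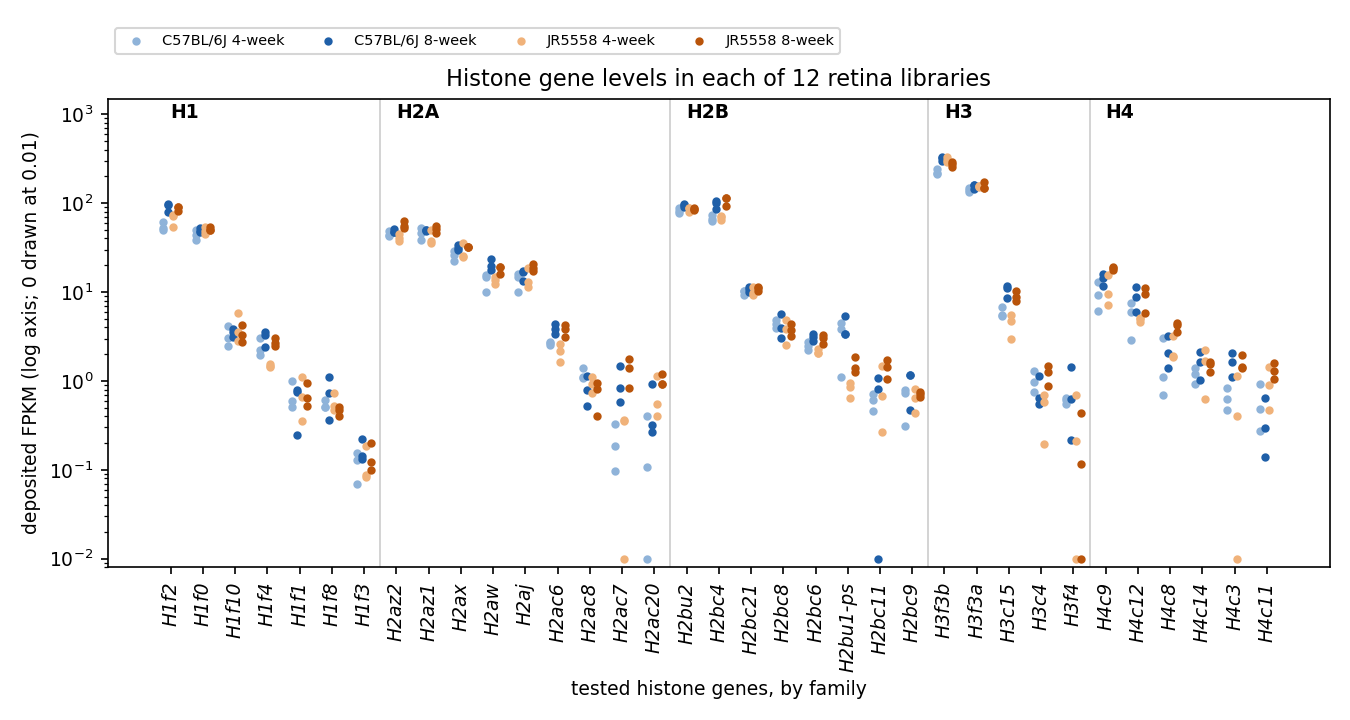
Deposited FPKM (log axis, 0 drawn at 0.01) of the 35 tested histone genes in each of 12 libraries, ordered by mean level within each family, with 1 point per library coloured by strain and age. H3f3b and H3f3a stand above all others, and H4 genes stand no higher than 19.1 FPKM.

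In C57BL/6J retinas, 3 histone messages were higher at 8 than at 4 weeks. Of the 35 tested histone genes these 3 passed the threshold and 0 fell, against 0.431% of all tested genes in either direction, 0.202% upwards and 0.229% downwards. They were H1f2, H3f3b and H2bc4.

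H1f2 stood at 95.4, 78.9 and 82.0 CPM at 4 weeks and at 127, 151 and 153 CPM at 8 weeks in C57BL/6J. The groups did not overlap, and the gene rose by a log2 fold change of 0.75 ± 0.11 (1.68-fold, adjusted p = 0.00397). H2bc4 stood at 85.6, 77.3 and 72.7 CPM and then at 101, 122 and 115 CPM, also without overlap, with a log2 fold change of 0.52 ± 0.10 (adjusted p = 0.0188). The adjusted p of H2bc4 was above 0.05 without C57BL/6J 4-week replicate 2 (0.0652), 8-week replicate 2 (0.162) or 8-week replicate 3 (0.0988). H3f3b stood at 732, 633 and 644 CPM and rose to 897, 958 and 990.3 CPM, a log2 fold change of 0.50 ± 0.07 (1.42-fold, adjusted p = 0.00397). The H1f2 and H3f3b calls were kept in all 12 fits that left out a library. H3c15 (0.84 ± 0.20, adjusted p = 0.0811) and H2aw (0.59 ± 0.15, adjusted p = 0.0919), an H2A gene near H2bu2, did not pass.

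In JR5558, 4 of the 35 passed between the ages and all 4 were higher at 8 weeks, against 1.51% of all tested genes in either direction, 0.676% upwards and 0.835% downwards. They were H2bc4, H2az2, H3c15 and H2ac6, of which H2bc4 was also called in C57BL/6J. No histone gene was called lower.

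H2bc4 stood at 83.4, 74.8 and 80.5 CPM at 4 weeks in JR5558 and at 131, 108 and 133 CPM at 8 weeks. The groups did not overlap, and the log2 fold change was 0.64 ± 0.10 (adjusted p = 0.00136). It was called in all 12 fits that left out a library. H3c15 stood at 4.83, 3.03 and 5.70 CPM and then at 8.94, 8.16 and 10.5 CPM, a log2 fold change of 1.02 ± 0.21 (adjusted p = 0.0158). H2ac6, an H2A gene next to H2bc4 on chromosome 13, stood at 6.52, 4.08 and 5.40 CPM and then at 10.6, 7.89 and 9.63 CPM, a log2 fold change of 0.81 ± 0.18 (adjusted p = 0.0324). Neither gene's groups overlapped.

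H2az2, a gene of H2A.Z, the variant found at promoters, stood at 67.5, 62.2 and 73.7 CPM at 4 weeks in JR5558 and at 85.9, 91.7 and 103 CPM at 8 weeks, again apart. It rose by 0.47 ± 0.09 on the log2 scale (adjusted p = 0.0130). In C57BL/6J the same gene differed by 0.11 ± 0.09, and the difference between the strains did not pass (adjusted p = 0.514). Without JR5558 4-week replicate 2 or 8-week replicate 3, H2bc4 remained the only histone gene called in JR5558. Without JR5558 4-week replicate 3, 8 were called, H2bc4, H2az2, H3c15 and H2ac6 among them.

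**Figure D3:**
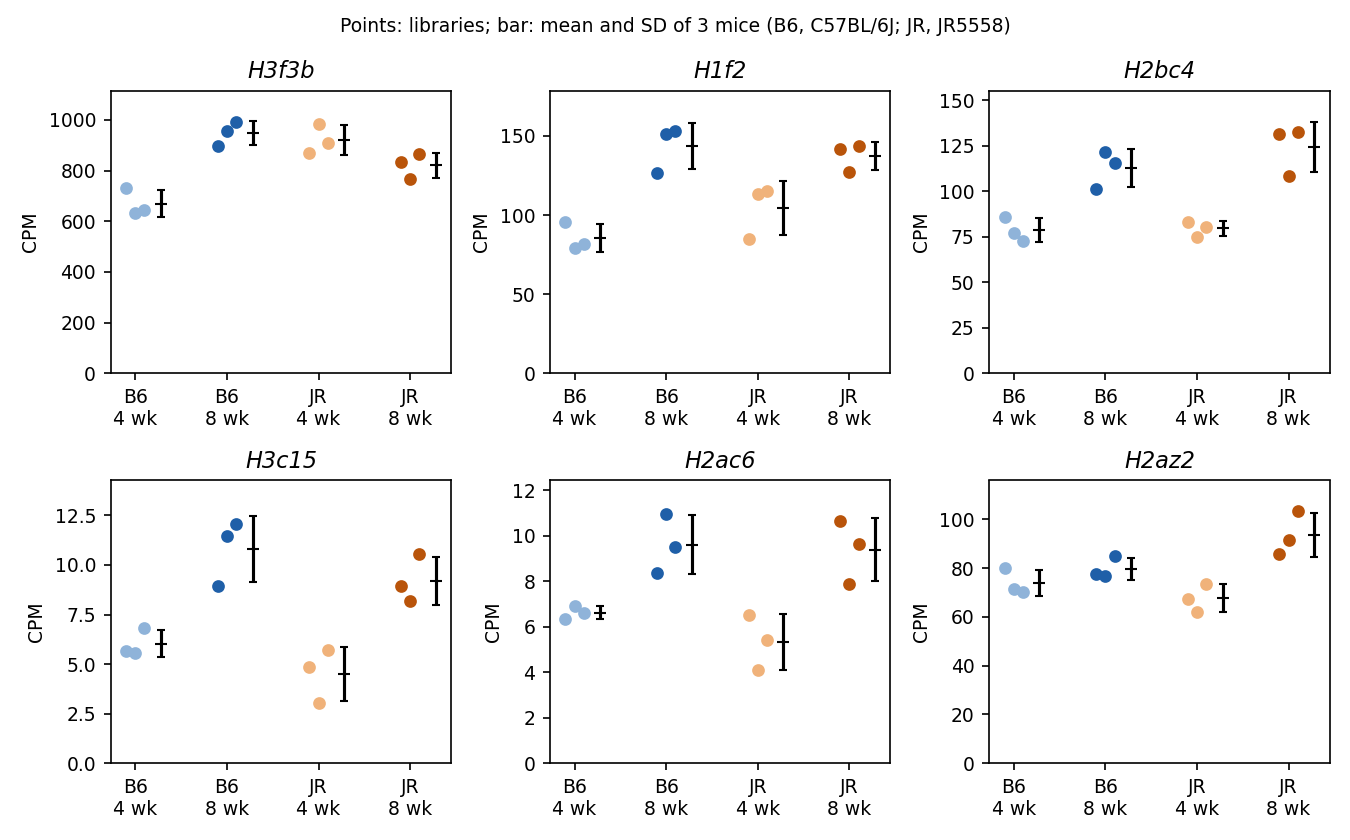
CPM of H3f3b, H1f2, H2bc4, H3c15, H2ac6 and H2az2 in each library of the 4 groups, with the mean and SD of 3 mice beside the points. In H2bc4, H3c15 and H2ac6 all 8-week libraries of a strain lie above its 4-week libraries, and H3f3b has its lowest group in C57BL/6J at 4 weeks (633 to 732 CPM).

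The age differences of the strains come from separate libraries. Of the 35 tested genes 25 (71.4%) were above 0 in both strains, against 30.6% of all tested genes, and 8 (22.9%) were higher with an unadjusted p under 0.05 in both, against 1.65%. These shares are over genes that passed a filter on counts, and genes are not independent. The median log2 fold change of the 35 was 0.36 in C57BL/6J and 0.40 in JR5558, beside 0.00 and -0.01 for all tested genes. A contrast averaged over both strains was added after the data were seen. It called 10 of the 35 higher and 0 lower, against 5.54% of all genes in either direction, 2.48% upwards and 3.06% downwards. They were H2bc4 (0.58 ± 0.07, adjusted p = 9.79e-05), H1f2 (0.57 ± 0.08), H3c15 (0.93 ± 0.14), H2ac6 (0.67 ± 0.13), H2aw (0.50 ± 0.10), H2az2 (0.29 ± 0.06), H2ac7 (2.28 ± 0.54), H2bc6 (0.40 ± 0.10), H1f4 (0.62 ± 0.15) and H4c9 (0.68 ± 0.18). The calls of H2bc4, H1f2, H3c15, H2ac6 and H2aw were kept in all 12 fits without a library. H2ac7 rests on few reads, 1, 2 and 4 counts at 4 weeks and 18, 6 and 9 at 8 weeks in C57BL/6J, and 5, 4 and 0 against 21, 18 and 10 in JR5558. H3f3b, called in C57BL/6J alone, was not called in the average (0.17 ± 0.05, adjusted p = 0.0664).

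**Figure D4:**
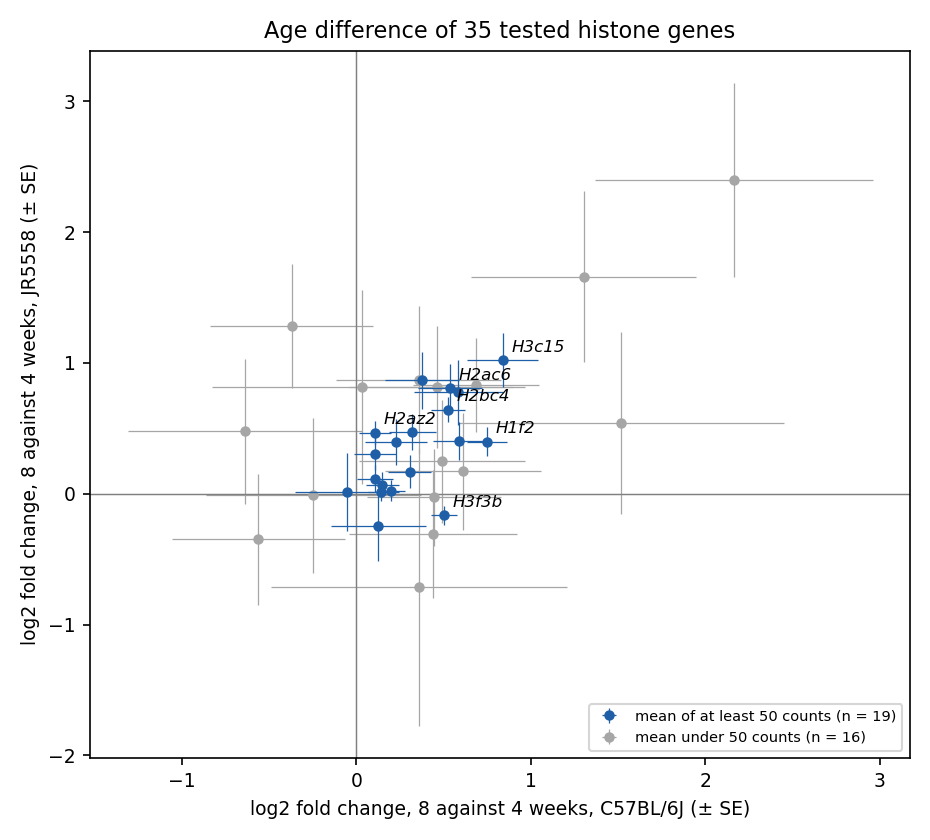
Log2 fold change from 4 to 8 weeks in C57BL/6J (x axis) and in JR5558 (y axis) for the 35 tested histone genes, with standard errors, in blue for the 19 with a mean of at least 50 counts. Of the 35, 25 lie above 0 on both axes, and H3f3b lies at 0.50 in C57BL/6J and -0.16 in JR5558.

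Summed over all 67 replication-dependent genes, tested or not, the level stood at 351, 318 and 299 CPM in C57BL/6J at 4 weeks and at 414, 482 and 482 CPM at 8 weeks. In JR5558 it stood at 326, 340.4 and 349 CPM at 4 weeks and at 475, 418 and 478 CPM at 8 weeks. In both strains every 8-week library lay above every 4-week library, with a ratio of means of 1.42 ± 0.17 in C57BL/6J and 1.35 ± 0.11 in JR5558 (1.37 without JR5558 4-week replicate 3). Rn7sk, which has no poly-A tail, moved with this sum in JR5558: it had 32, 69 and 141 counts at 4 weeks and 201, 246 and 184 at 8 weeks, without overlap. Its log2 fold change with age was 1.33 ± 0.41 in JR5558 (unadjusted p = 0.00482, adjusted p = 0.110 in edgeR), 0.45 ± 0.43 in C57BL/6J (adjusted p = 0.662), where the groups overlapped, and 0.89 ± 0.30 in the average (adjusted p = 0.0837). Malat1, the other tested RNA without a standard tail, went the other way. Its log2 fold change with age was -0.57 ± 0.20 in C57BL/6J, -0.22 ± 0.20 in JR5558 and -0.39 ± 0.14 in the average. Malat1 did not pass the threshold in any of these comparisons. The part of poly-A selection in the histone levels was not tested. Between strains the groups of the summed level overlapped at both ages, with ratios of 1.05 ± 0.09 at 4 weeks and 0.996 ± 0.113 at 8 weeks. H2bc4, H1f2 and H2bu2 carry much of this sum. H2bu2 itself stayed between 47.8 and 60.7 CPM in all libraries and passed no test, with a log2 fold change between ages of 0.20 ± 0.08 in C57BL/6J and 0.02 ± 0.08 in JR5558. In C57BL/6J its age groups did not overlap, at 47.8 to 54.5 and 56.0 to 60.7 CPM (unadjusted p = 0.0275, adjusted p = 0.280 in edgeR). At 8 weeks its JR5558 libraries, at 52.1 to 54.9 CPM, lay below those of C57BL/6J. The 12 replication-independent genes summed to 1480 ± 114 CPM in C57BL/6J at 4 weeks, 1843 ± 76 at 8 weeks, and 1784 ± 55 and 1750 ± 110 CPM in JR5558 at 4 and 8 weeks. The second sum is mostly H3f3b and H3f3a. Its 8-week libraries lay above the 4-week libraries in C57BL/6J (ratio 1.25 ± 0.11) and overlapped them in JR5558 (0.981 ± 0.068).

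Between strains, 2 of 35 histone genes passed at 4 weeks, against 6.16% of all tested genes, 3.27% higher and 2.90% lower. H3f3b was higher in JR5558 and H2bu1-ps lower. At 8 weeks 0 passed by edgeR's quasi-likelihood test, against 5.18% of all tested genes. DESeq2 also called 0, and 4 had an unadjusted p under 0.05 in edgeR. Those 4 were H4c11 (1.86 ± 0.62), H2bu1-ps (-1.41 ± 0.50), H3f3b (-0.21 ± 0.07) and H2az2 (0.23 ± 0.09), none with an adjusted p below 0.102. An edgeR fit of only the 8-week libraries called all 4, with adjusted p of 0.0205 to 0.0456. That fit also called more of all genes than the main fit, and both counts are given with the processing alternatives below.

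H3f3b at 4 weeks stood at 870.1, 984 and 909 CPM in JR5558, all above the 633 to 732 CPM of C57BL/6J, with a log2 fold change of 0.46 ± 0.07 (1.37-fold, adjusted p = 0.000548). The call was kept in all 12 fits that left out a library, and without JR5558 4-week replicate 3 it was 0.47 (adjusted p = 0.00228). At 8 weeks the order was turned: JR5558 stood at 832, 768 and 865 CPM, all below the 897 to 990.3 CPM of C57BL/6J. The change of the strain effect from 4 to 8 weeks was -0.67 ± 0.11 and passed the threshold (adjusted p = 0.0105), the only call among the 35, against 0.0927% of all tested genes. H3f3b rose with age in C57BL/6J and differed by -0.16 ± 0.07 in JR5558 (adjusted p = 0.269). The adjusted p of this change was above 0.05 in 5 of the 12 fits that left out a library (0.0533 to 0.0781), namely those without C57BL/6J 8-week replicate 2 or 3, JR5558 4-week replicate 2, or JR5558 8-week replicate 1 or 2.

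H3f3a, the other gene of the same protein, differed by 0.14 ± 0.07 between strains at 4 weeks (adjusted p = 0.285, interval -0.02 to 0.31). Within a library, the ratio of H3f3b to H3f3a counts needs no scaling. It was 1.41, 1.28 and 1.37 in C57BL/6J at 4 weeks and 1.74, 1.69 and 1.78 at 8 weeks, and 1.56, 1.85 and 1.64 in JR5558 at 4 weeks and 1.57, 1.47 and 1.42 at 8 weeks. C57BL/6J at 4 weeks lay below the other 3 groups, narrowly below JR5558 at 8 weeks.

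**Figure D5:**
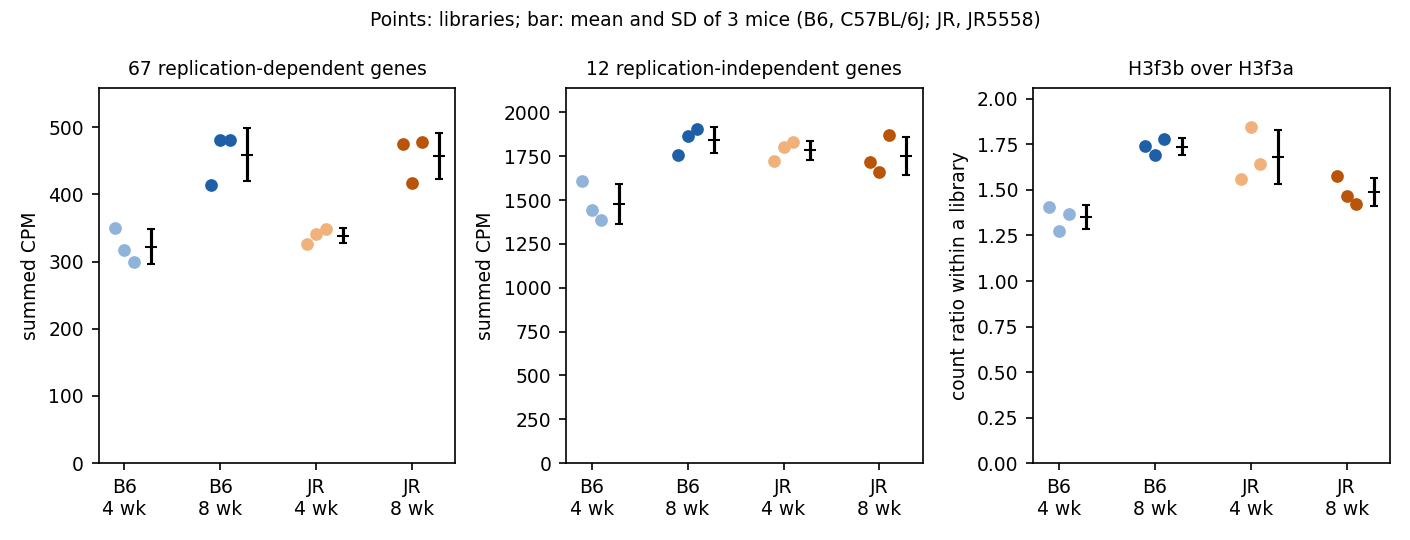
Summed CPM of the 67 replication-dependent (left) and 12 replication-independent (middle) histone genes, and the count ratio of H3f3b to H3f3a (right), in each library, with the mean and SD of 3 mice. The replication-dependent sum is 299 to 351 CPM in the 4-week libraries and 414 to 482 CPM in the 8-week libraries, and the H3f3b ratio is lowest in C57BL/6J at 4 weeks (1.28 to 1.41).

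H2bu1-ps, annotated as protein-coding in the deposited table though its symbol marks a pseudogene, had 31, 28 and 9 counts in C57BL/6J at 4 weeks and 8, 7 and 5 in JR5558. The groups lay apart and the log2 fold change was -1.92 ± 0.54 (adjusted p = 0.0411). The call was lost in 11 of 12 fits without a library, with an adjusted p of up to 0.153, and was kept only without C57BL/6J 4-week replicate 3. H1f4 (-0.67 ± 0.22) and H1f2 (0.29 ± 0.11) did not pass at 4 weeks (adjusted p = 0.0870 and 0.153).

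Lists of genes known to cut, place or drive histones were also tested. Between strains, 6.16% of all tested genes passed at 4 weeks and 5.18% at 8 weeks. With age, the share was 0.431% in C57BL/6J, 1.51% in JR5558 and 5.54% in the average. These shares are the background for each list. Of 22 tested genes of histone mRNA processing and decay, 1 fell at 4 weeks in JR5558 (Eri1, which trims histone messages, -0.51 ± 0.11, adjusted p = 0.00627) and none passed between strains at 8 weeks or with age within either strain. Slbp, the protein that binds the stem-loop, stood at 20.2 to 26.4 CPM in all libraries. Its log2 fold change with age was -0.14 ± 0.11 in C57BL/6J and -0.01 ± 0.11 in JR5558, and -0.15 ± 0.11 between strains at 4 weeks. In the average over both strains Npat, which switches on the histone clusters in S phase, fell by 0.43 (adjusted p = 0.0197).

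Of 33 tested histone chaperones and exchange factors, 2 were lower in JR5558 at 4 weeks: Supt16, a subunit of FACT (-0.31 ± 0.08, adjusted p = 0.0175), and Ubn2, of the HIRA complex that places H3.3 (-0.43 ± 0.12, adjusted p = 0.0348). At 8 weeks 1 was higher, Chaf1a of CAF-1, the chaperone of replicated DNA (0.75 ± 0.16, adjusted p = 0.00894). With age, none passed in C57BL/6J and Ruvbl1 was higher in JR5558 (0.41 ± 0.10, adjusted p = 0.0449). The other histone variants Macroh2a1, Macroh2a2 and Cenpa had no call in any contrast.

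Mki67 and Top2a, which dividing cells express, stood at 0 to 0.266 and 0 to 0.340 CPM. None of 29 tested genes of DNA replication and proliferation passed in either strain's age comparison, with a median log2 fold change of 0.05 in C57BL/6J and 0.28 in JR5558. In the average, Mcm2 (0.43 ± 0.10) and Cdt1 (0.49 ± 0.14), both of replication licensing, were higher at 8 weeks (adjusted p = 0.0196 and 0.0481). The list summed to 370.2 to 397 CPM at 4 weeks and 388 to 415 CPM at 8 weeks in C57BL/6J, and to 362 to 394 and 399 to 421 CPM in JR5558. Its part in the histone levels was not tested.

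Markers of other cells moved with some of these groups. Rod markers summed to 22739 to 24501 CPM at 4 weeks and 26653 to 28102 CPM at 8 weeks in C57BL/6J, with 2 of 8 called higher, and to 22254 to 24538 and 23544 to 24187 CPM in JR5558. Pigment epithelium markers were higher in JR5558 at 4 weeks, 9 of 12, summing to 370 to 559 CPM against 122 to 272 CPM. Microglia and macrophage markers were higher there in 4 of 12, with 84.4 to 101 CPM against 62.3 to 73.6 CPM, and Müller glia markers in 5 of 8, with 4722 to 5434 CPM against 4016 to 4713 CPM. With age the Müller glia sum in JR5558 was higher without overlap, at 5628 to 5893 CPM. Yet 0 of the 8 genes were called, and their median log2 fold change was -0.06. In C57BL/6J the sum overlapped, at 4483 to 4838 CPM. Between strains at 8 weeks, 2 of 8 Müller glia, 5 of 12 microglia and macrophage and 2 of 12 pigment epithelium markers were higher in JR5558, and 2 of 8 rod markers were lower. The microglia and macrophage sum was then 98.7 to 115 CPM against 65.0 to 69.8 CPM, and that of the pigment epithelium 452 to 631 CPM against 190.1 to 322 CPM. Of 8 endothelium markers 1 was higher and 1 lower, and of 6 cone markers 1 was higher and 1 lower. Blood cell markers fell with age in JR5558 in 2 of 5 genes, from 43.6 to 59.5 CPM to 20.1 to 21.5 CPM. Endothelium markers were higher in JR5558 at 4 weeks in 2 of 8. Their sum, 355 to 368 CPM against 229 to 258 CPM, was mostly Kdr, with a mean of 227 CPM over all libraries. The median log2 fold change of the 8 genes was 0.06. With age in JR5558, 1 of 8 fell, and the sum was 311 to 322 CPM at 8 weeks. Of 6 cone markers 1 was higher and 2 lower in JR5558 at 4 weeks, and they summed to 1313 to 1482 CPM over all libraries. Lens markers ranged from 1.57 to 135 CPM with no call and with Lim2 at 0 counts, and lymphocyte markers from 0.389 to 1.96 CPM with no call, 1 of 8 tested, and with Cd3e at 0 counts. Their part in the histone levels was not tested.

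Promoters were read because several cluster genes moved together with age. Motifs were counted in histone and in all promoters, not by age difference, so their part in the age differences was not tested. The 300-base windows from RefSeq (GRCm38.p6), 250 bases before to 50 after the start, matched 70 of the 79 genes, with 71 promoters. On either strand, the CCAAT box (CCAAT) stood in 84.5% of histone promoters against 37.4% of all 32851, the TATA box (TATAAA) in 52.1% against 13.6%, and the octamer (ATTTGCAT) in 21.1% against 1.74%. None of the 3 spellings contains another. Among replication-dependent genes the families differed. Their octamer stood in 43.8% of H2B and 38.9% of H2A promoters and in none of the H1, H3 or H4 promoters, and their CCAAT box in 27.3% of H4 promoters and in all promoters of the other 4 families. Of 10 replication-independent promoters, 7 held the CCAAT box, 2 the TATA box and 1 the octamer. The promoters of H1f2, H2ac6 and H3f3b are printed below, 5′ to 3′ on the strand of the gene, with these motifs in capitals, to set a linker, a core and a variant gene side by side.
H1f2: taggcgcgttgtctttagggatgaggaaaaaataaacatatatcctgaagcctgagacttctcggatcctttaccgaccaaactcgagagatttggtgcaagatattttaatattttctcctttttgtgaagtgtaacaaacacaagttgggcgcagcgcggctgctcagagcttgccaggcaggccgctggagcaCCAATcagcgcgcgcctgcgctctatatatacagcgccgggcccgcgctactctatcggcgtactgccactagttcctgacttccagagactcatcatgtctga
H2ac6: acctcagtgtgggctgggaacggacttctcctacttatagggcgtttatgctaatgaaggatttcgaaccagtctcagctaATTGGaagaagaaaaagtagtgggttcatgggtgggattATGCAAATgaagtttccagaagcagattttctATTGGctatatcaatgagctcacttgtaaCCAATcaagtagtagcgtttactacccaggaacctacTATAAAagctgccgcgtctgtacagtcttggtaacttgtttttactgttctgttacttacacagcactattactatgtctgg
H3f3b: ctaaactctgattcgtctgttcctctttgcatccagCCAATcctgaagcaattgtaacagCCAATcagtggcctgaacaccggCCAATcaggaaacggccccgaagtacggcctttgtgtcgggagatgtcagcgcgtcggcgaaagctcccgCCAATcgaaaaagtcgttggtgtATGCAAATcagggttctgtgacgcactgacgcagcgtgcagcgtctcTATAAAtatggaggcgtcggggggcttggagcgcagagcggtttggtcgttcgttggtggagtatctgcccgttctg
They lie at chr13:23738557-23738856 (plus strand), chr13:23683910-23684209 (minus) and chr11:116024455-116024754 (minus). H1f2 holds 1 CCAAT box and neither a TATA box in this spelling nor an octamer. H2ac6 holds 3 CCAAT boxes, 1 TATA box and 1 octamer, and H3f3b, a replication-independent gene, 4, 1 and 1.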

How the data were processed

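Reads had been handled with featureCounts 1.5.0-p3, HISAT2 2.0.5 and fastp, per the submitters' processing notes. The authors deposited raw counts per gene and library, per the file headers. The deposited FPKM values, made by the authors in a way the sources used here do not give, equal the count over the gene length and over 1 total per library within 0.1%. The treatment of reads matching several genes and the strand setting are not given in the sources used here. The notes name mm10, but 0 of the 79 genes have the start and end of GRCm38 (GENCODE M21), so the deposited positions are not printed.

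Counts were analysed in R 4.3.3 with DESeq2 1.42.0, edgeR 4.0.16 and limma 3.58.1. The filter on low counts was filterByExpr of edgeR, set to a minimum count of 10 and a total of 15 with the 4 groups. Genes that passed were tested, after TMM scaling, with edgeR's quasi-likelihood test (2-sided), 1 mean per group over 12 libraries, and Benjamini-Hochberg adjustment over 18334 genes. CPM use the TMM-scaled library size. Intervals of log2 fold changes are at 95%, and limits for 0 counts (3 counts) cover counting error only. Replicates are separate mice. The method was tested on simulated data.

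Genes named are those called in any contrast, the 3 with the highest FPKM in each family, up to 5 per contrast with an unadjusted p under 0.05, and up to 3 called genes per list with Slbp; others were chosen after their values were seen. The members and lists were chosen with earlier results of these data known. Alternatives were RLE, no filter, at least 1 CPM in 3 libraries, DESeq2, protein-coding genes only, the replicate block, only the groups compared, raw library totals for the sums, and leaving out each library. The contrast averaged over strains was added after the data were seen. The principal components were also added then, under 3 ways of taking the log, all given. A gene of the marker lists is not reported here.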

Additional observations from a re-analysis of the deposited data

Results flagged for a closer look

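H3f3b, a gene of the H3 variant H3.3, had a strain difference that changed with age. In JR5558 against C57BL/6J it was 0.46 ± 0.07 on the log2 scale at 4 weeks and -0.21 ± 0.07 at 8 weeks, and the test of the change itself gave -0.67 ± 0.11 (adjusted p = 0.0105, edgeR's quasi-likelihood test). By the same test the 8-week difference did not pass the threshold (adjusted p = 0.134). The change was not called in 5 of the 12 fits that left out a library (adjusted p up to 0.0781). All 3 JR5558 libraries lay above all 3 of C57BL/6J at 4 weeks and below them at 8 weeks. The 4-week JR5558 libraries also differ from the other 9 in Xist and Ddx3y, which cannot be told apart from strain and age here.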

How the results depend on the processing

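Without the filter on low counts, 5 histone genes were called with age in C57BL/6J, 10 in JR5558 and 16 in the average over strains, and DESeq2 called 5 and 7 in C57BL/6J and JR5558. In a fit of only the groups compared, 1 was called between strains at 4 weeks and 4 at 8 weeks. H2bc4 in C57BL/6J then missed the threshold (adjusted p = 0.0604). Over fits that left out a library, the number called ran from 1 to 2 between strains at 4 weeks, from 2 to 4 with age in C57BL/6J, from 1 to 9 in JR5558 (1 without JR5558 4-week replicate 2 or 8-week replicate 3, 9 without C57BL/6J 4-week replicate 3), from 0 to 1 for the change of the strain effect and from 5 to 14 in the average (5 without C57BL/6J 8-week replicate 3 or JR5558 8-week replicate 3). At 8 weeks it was 0 in each. The age ratio of summed replication-dependent histones ran from 1.37 to 1.49 in C57BL/6J and from 1.32 to 1.41 in JR5558. Between strains at 8 weeks 949 of all genes were called, and 2183 with only the groups compared. Over all genes the age calls in C57BL/6J were 79, and 445 without a filter, 405 by DESeq2 and 22 with only the groups compared; in JR5558 they were 277, 854, 705 and 544. Those of the change of the strain effect were 17, 96 without a filter and 62 by DESeq2. In the average they were 1016, 1689 without a filter, 1655 by DESeq2 and 641 with the block. Between strains at 4 weeks they were 1130, and 558 with only the groups compared. Without a library they ran from 814 to 1162 and from 538 to 1373 between strains at 4 and 8 weeks, from 16 to 126 and from 63 to 987 with age in C57BL/6J and JR5558, from 6 to 38 for the change of the strain effect and from 248 to 1819 in the average. Where a histone gene's log2 fold change was recomputed in these alternatives, which was done for the genes the naming rule picked in each contrast and for the genes called in the average, it kept its sign. Other fold changes in the report, such as that of H3f3b with age in JR5558 and those of H2bu2 and H3f3a, were not recomputed.

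Same-numbered libraries did not deviate together (correlations of -0.09 to 0.09), so they share a number only. With the replicate number as a replicate block, 1 histone gene was called between strains at 4 weeks, 0 at 8 weeks, 3 with age in C57BL/6J, 4 in JR5558, 1 for the change of the strain effect and 9 in the average. H2bu1-ps at 4 weeks (adjusted p = 0.0629) and H2ac6 in JR5558 (0.0526) were not called there. The filter on low counts left 44 of 79 genes untested, and 16 of the 35 tested genes had a mean of under 50 counts.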
